A study of Mus musculus with 6 samples.

Results

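The genes described here are 10 transcription and splicing factors that govern the epithelial-mesenchymal transition. Zeb1, Zeb2, Snai1, Snai2, Twist1, Twist2 and Prrx1 act on the mesenchymal side, and Esrp1, Grhl2 and Ovol2 act on the epithelial side. They were taken by gene symbol from a count table of 23284 genes, and each was present in the table as 1 gene. Their levels were compared between MV+, a line derived from the cultured lens epithelium of a wild-type C57BL6 mouse (Pax6-ON cells in the study), and RAG, a line derived from a renal adenocarcinoma of the BALB/c strain (Pax6-OFF cells). Neither line was treated, both grew in the same medium with serum, and each was sampled as 3 libraries from separate flasks. Each condition is thus 1 cell line, so tissue of origin, strain, transformation and line cannot be told apart, and a p-value reflects only how far cultures of the same line differ. The study states that the lines were not authenticated.

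In the epithelial-mesenchymal transition, epithelial cells lose their junctions and their polarity and become motile cells that make extracellular matrix. Zeb and Snai proteins are zinc finger repressors that bind E-box sequences in the promoters of E-cadherin and other epithelial genes, Twist proteins are bHLH factors that act with them, and Prrx1 is a homeodomain factor of mesenchymal cells. Against them stand Grhl2 and Ovol2, which keep Zeb1 silent in epithelia, Esrp1, which sets the epithelial splice forms of many transcripts, and the miR-200 family, which targets Zeb transcripts and is itself repressed by Zeb proteins. Lens epithelial cells are known to go through this transition when they leave their capsule environment, as in the clouding that can follow cataract surgery.

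Library totals ranged from 17413045 to 22428230 counts in MV+ and from 28252165 to 43168532 in RAG, and Rn45s, the ribosomal RNA precursor, took between 12.4% and 20.1% of them. Pax6, the gene on which the study centred, stood at 57.3 ± 5.16 CPM (counts scaled to a common library size, mean ± SD, n = 3) in MV+ and at 0.031 ± 0.0536 CPM in RAG. Of 15 lens markers, 4 reached 1 CPM in MV+ (Pax6, Sox2, Six3 and Cryab, the last of which was lower in MV+ than in RAG, at a log2 fold change of -1.08 ± 0.09), whereas the lens fibre genes and the lens factor Foxe3 were at or near 0. RAG had 9 of 14 kidney epithelial markers at 1 CPM, with Slc34a1 and Umod, which mark differentiated tubules, at 0 in both lines. Of the 11 kidney markers tested, 7 were lower and 4 higher in MV+, the latter being Lrp2 (51.6 ± 2.44 CPM against 0.0708 ± 0.00548 in RAG), Aqp1, Cubn and Emx2, the last not called without MV+ replicate 1. Markers of other cells also differed in places. The 8 neuronal markers summed to between 100 and 104 CPM in MV+ and between 0.857 and 1.76 in RAG, with the neuronal nuclear marker Rbfox3 at 0. Only 2 of these 8 reached 1 CPM in MV+, and 0 did in RAG. The 10 leukocyte markers summed to between 98.4 and 115 CPM in RAG and between 2.34 and 2.89 in MV+, mostly from the lysosomal gene Cd68. The leukocyte factor gene Sfpi1 had 647 counts over RAG and 0 over MV+ and Lyz2 66 and 1, while the pan-leukocyte gene Ptprc was at 0.261 ± 0.186 CPM in RAG and Cd3e, Emr1 and Tyrobp were at 0 in both lines. The 8 endothelial, the 8 melanocyte and neural crest and the 8 skeletal muscle markers each summed to at most 4.07 CPM in any library. The part of these markers in the results was not tested.

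All 7 mesenchymal regulators were higher in MV+ than in RAG, and none of the 3 epithelial regulators reached 1 CPM in either line. Prrx1 and Twist1 had no count in any RAG library, Snai1 and Snai2 had 2 counts each over all RAG libraries, and Zeb1, Zeb2 and Twist2 were expressed in both lines. Esrp1, Grhl2 and Ovol2 together had 2 counts in MV+ and 26 in RAG. Each of the 7 was called in the quasi-likelihood test of edgeR at a Benjamini-Hochberg adjusted p under 0.05. Differences of this kind were common between the lines, since the test called 79.3% of 12965 genes, 40.4% as higher and 38.9% as lower in MV+, and 40.9% had every MV+ library above every RAG library. Snai1, Snai2, Twist1 and Prrx1 were tested only because of their counts in MV+ and so had to differ. In bulk RNA, fewer cells that express a gene and less of its RNA in each cell cannot be told apart.

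**Figure D1:**
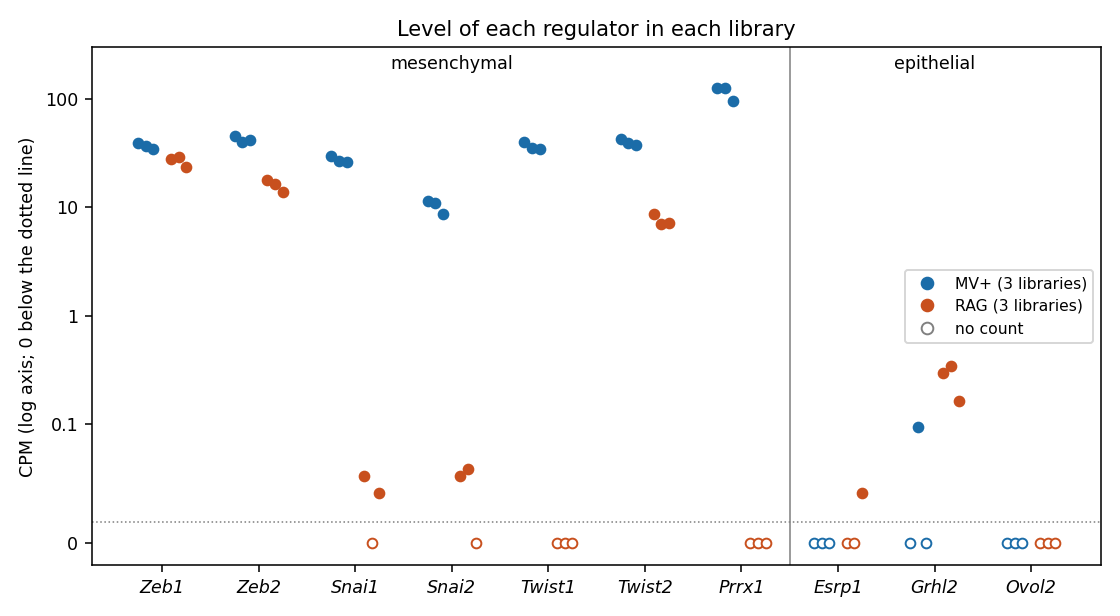
Level of each of the 10 regulators in CPM on a log axis, 1 point per library, with MV+ in blue and RAG in orange and libraries without a count drawn as open circles below the dotted line. The mesenchymal regulators lie between 8.67 and 126 CPM in MV+ and fall into a group shared with RAG (Zeb1, Zeb2, Twist2) and a group at or near 0 in RAG, and no epithelial regulator exceeds 0.345 CPM.

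The Zeb factors were the tested regulators whose levels differed least between the lines. Zeb1, the zinc finger repressor most closely tied to loss of E-cadherin, had 702, 777 and 843 counts in MV+ replicates 1 to 3 and 849, 765 and 1012 in RAG, which scaled to 39.0, 37.0 and 34.3 CPM against 28.0, 29.3 and 23.5 CPM. The lowest MV+ library was thus above the highest RAG library, by a narrow margin. The difference was 0.45 ± 0.09 on the log2 scale (MV+ minus RAG, ± SE, edgeR adjusted p = 0.00036), a 1.37-fold difference that 32.4% of all tested genes matched or exceeded in the same direction. Zeb1 was the regulator with the smallest fold, and over all alternatives its log2 fold change lay between 0.35 and 0.62 with an adjusted p of at most 0.00324.

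Zeb2, its paralog with a role in the neural crest, lies on chromosome 2 (mm9, chr2:44839154-44968799, minus strand), where the table gives it 10 exon blocks. It had 46.0, 40.0 and 42.3 CPM in MV+ and 18.0, 16.4 and 13.8 CPM in RAG, so the libraries of the lines were well separated. The log2 fold change was 1.42 ± 0.10 (edgeR adjusted p = 2.69e-09), or 2.67-fold. Per transcript length, the ratio of Zeb2 to Zeb1 was 0.742 ± 0.0492 in MV+ (SD, n = 3) and 0.38 ± 0.0266 in RAG, with no overlap between libraries. A two-sided exact permutation test of this ratio gave p = 0.1, the smallest value that 3 against 3 libraries allow, so this design could not pass a threshold of 0.05. Zeb1 was the more abundant of the pair in all 6 libraries.

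Other annotated genes overlap both loci, and the deposited counts did not use strand. Gm10125 on the opposite strand of Zeb1 had 16 counts over the MV+ libraries and 11 over RAG, Gm13476 on the opposite strand of Zeb2 had 34 and 51, and Mir5129 inside Zeb2 had 0 and 1. Each is small beside the 2322 and 2626 counts of Zeb1 and the 2707 and 1569 of Zeb2. Reads that fall on both genes of such a pair were left out of the counts, so these values do not show how many Zeb reads were lost.

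The miR-200 family is the best known post-transcriptional control of the Zeb transcripts, and its members fall into a pair of seed groups. Their mature sequences (RefSeq, GRCm38.p6; all 6 miRNAs looked up, miR-205 included, were matched) are printed here so that they can be read against the sites in Zeb2, with the seed, bases 2 to 8, in capitals. The genes of miR-200a, miR-200b and miR-429 are on chromosome 4 and those of miR-200c and miR-141 on chromosome 6, all on the minus strand.
miR-200b-3p: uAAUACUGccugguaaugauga
miR-200c-3p: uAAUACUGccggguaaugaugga
miR-429-3p: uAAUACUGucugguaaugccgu
miR-200a-3p: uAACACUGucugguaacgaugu
miR-141-3p: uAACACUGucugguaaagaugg

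The first seed group, miR-200b, miR-200c and miR-429, pairs with the letters CAGTATT in a transcript, and the longest annotated 3'UTR of Zeb2 (mm9) held 5 such matches within 2000 bases. They are printed as 23-base stretches of the transcript strand with the match in capitals, at chr2:44843686-44843708, chr2:44843621-44843643, chr2:44843259-44843281, chr2:44843174-44843196 and chr2:44843040-44843062, all on the minus strand.
Zeb2 site 1: ccatacatCAGTATTttattatt
Zeb2 site 2: cagtgcatCAGTATTacgattcc
Zeb2 site 3: acccgtgtCAGTATTagacgact
Zeb2 site 4: aattttgtCAGTATTacaccaaa
Zeb2 site 5: gtagtgtaCAGTATTatagttct

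The other seed group, miR-200a and miR-141, pairs with CAGTGTT, which occurred 4 times in the same 3'UTR, at chr2:44843870-44843892, chr2:44843338-44843360, chr2:44843297-44843319 and chr2:44839916-44839938 on the minus strand.
Zeb2 site 6: attttgtaCAGTGTTaaggccta
Zeb2 site 7: tccttgtaCAGTGTTcagagggt
Zeb2 site 8: accagcttCAGTGTTaagctcac
Zeb2 site 9: aaggactgCAGTGTTtagattca

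The Zeb1 3'UTR held 5 matches of CAGTATT and 4 of CAGTGTT, the same numbers as Zeb2. The 3'UTRs of these genes had 2401 and 4939 bases. Those of Ovol2, Twist2, Twist1, Snai1 and Snai2 were shorter, from 428 to 1099 bases, and those of Esrp1, Grhl2 and Prrx1 had 2059, 2718 and 4891. CAGTATT occurred 1 time in Snai1 and 1 time in Snai2, CAGTGTT 1 time in Snai2 and 1 time in Grhl2, and neither occurred in Twist1, Twist2, Prrx1, Esrp1 or Ovol2. Of 4505 mouse 3'UTRs of at least 2000 bases, 19.1% held CAGTATT and 26.5% CAGTGTT in their first 2000 bases, on the transcript strand. The miR-205 site ATGAAGG, found in 17.0% of these 3'UTRs, occurred 1 time in Zeb1 and in no other regulator. A match of 7 letters is a description of the sequence and does not show a site in use.

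Reads from the miRNA genes were scarce. Mir200a, Mir200b, Mir429, Mir205, Mir203 and Mir34a had no count in any of the 6 libraries. Mir200c had 1, 1 and 0 counts in MV+ but no count in RAG, and Mir141 had 1 count in MV+ replicate 2 alone. Mir30a, of a family that targets Snai1, had 5, 8 and 7 counts in MV+ and 3, 4 and 9 in RAG, Mir30c-1 had 7 counts over each line, and Mir30d had 4 over MV+ and 0 over RAG. Mir34b had 4 counts over MV+ and 8 over RAG, and Mir34c had 1 and 2. The genes are short and the libraries were size-selected, so the counts describe precursor loci and say nothing of the mature miRNAs.

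Snai1 and Snai2 were expressed in MV+ and barely detected in RAG. Snai1, the Snail repressor whose protein is short-lived and held in check by F-box ligases, is on chromosome 2 (mm9, chr2:167363727-167368311, plus strand, 3 exon blocks). It had 533, 567 and 642 counts in MV+ and 1, 0 and 1 in RAG, or 29.6, 27.0 and 26.1 CPM against 0.033, 0 and 0.0232 CPM. Every MV+ library was above every RAG library, although the RAG libraries were the deeper ones. The ratio of the scaled counts was 1363, with an exact 95% counting interval from 377 to 11263, and the adjusted p was 3.02e-15 (edgeR).

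Snai2, the Slug repressor that is prominent in neural crest and in migrating epithelial sheets, is on chromosome 16 (mm9, chr16:14705952-14709475, plus strand, 3 exon blocks). It had 206, 232 and 213 counts in MV+ (11.5, 11.0 and 8.67 CPM) and 1, 1 and 0 in RAG (0.033, 0.0384 and 0 CPM). MV+ replicate 3 was the lowest of its line but still far above RAG. The scaled counts were 509 times as high in MV+ (exact 95% counting interval 140 to 4215), and the adjusted p was 1.3e-12 (edgeR). Since it rests on 2 counts in RAG, the fitted log2 fold change moved from 8.71 ± 0.33 to 7.98 without RAG replicate 3, the library with no count. Per transcript length Snai1 was 3.4 ± 0.376 times as abundant as Snai2 in MV+ (SD, n = 3). Snai3, the remaining family member, had 2, 4 and 11 counts in MV+ and 5, 2 and 6 in RAG, too few to be tested.

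The Snai1 promoter is printed because Snai1 is known to bind its own E-box and because the gene was near 0 in RAG and expressed in MV+. The sequence is the RefSeq window from 250 bases before to 50 after the start site (GRCm38.p6, chr2:167537945-167538244, plus strand), with the letters CAGGTG or CACCTG, the E-box that Zeb and Snai proteins bind, in capitals.
Snai1 promoter: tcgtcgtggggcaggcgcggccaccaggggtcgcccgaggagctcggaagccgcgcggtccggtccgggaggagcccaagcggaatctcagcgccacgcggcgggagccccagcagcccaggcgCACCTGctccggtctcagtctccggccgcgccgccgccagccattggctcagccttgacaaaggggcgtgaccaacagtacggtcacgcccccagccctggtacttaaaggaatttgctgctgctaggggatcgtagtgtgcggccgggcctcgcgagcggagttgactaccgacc

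The window held 1 match, which began 126 bases before the start. This motif, counted on both strands, was present in 20.2% of 32851 such windows in the mouse genome. The Snai1 window also held 34 CG dinucleotides against a median of 7 over all windows. No match was found in the windows of Twist1, Twist2, Prrx1 or Ovol2 or in any of the 4 windows of Zeb2. Promoter windows were matched for 6 of the 10 regulators, and those of Zeb1, Snai2, Esrp1 and Grhl2 were not matched.

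The Twist paralogs differed from each other in RAG. Twist1, a bHLH factor of cranial mesenchyme, is on chromosome 12 (mm9, chr12:34642536-34644696, plus strand, 2 exon blocks). It had 715, 745 and 857 counts in MV+ (39.8, 35.4 and 34.9 CPM) and 0 counts in all 3 RAG libraries. Twist1 was at least 1217-fold higher in MV+ against a floor of 3 counts summed over RAG, and the adjusted p was 3.13e-14 (edgeR). A count of 0 over the RAG libraries allows up to 0.0302 CPM.

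Twist2, a paralog with a role in skin mesenchyme, is on chromosome 1 (mm9, chr1:93698054-93744604, plus strand, 2 exon blocks). It had 42.7, 39.5 and 37.7 CPM in MV+ and 8.7, 7.02 and 7.2 CPM in RAG, so it was well expressed in both lines and the libraries did not overlap. Its log2 fold change was 2.39 ± 0.10 (edgeR adjusted p = 4.33e-12), or 5.23-fold, and 10.5% of tested genes had one as high. In MV+ the paralogs were close, with Twist2 1.35 ± 0.0283 times Twist1 per transcript length (SD, n = 3), whereas RAG had Twist2 only, within the limit that a count of 0 allows.

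Prrx1, a homeodomain factor of limb and craniofacial mesenchyme, was abundant in MV+ and had no count in RAG. It lies on chromosome 1 (mm9, chr1:165175250-165243781, minus strand, 5 exon blocks). It had 2265, 2656 and 2378 counts in MV+ (126, 126 and 96.8 CPM) but none in RAG, at least 3859-fold higher in MV+ (edgeR adjusted p = 2.12e-10). In CPM, MV+ replicate 3 was lower than the other MV+ libraries, as it was for every other mesenchymal regulator except Zeb2. For Twist1 this gap was small. Prrx2, its paralog with an overlapping role in skeletal development, had 22.8 ± 1.9 CPM in MV+ against 0.0999 ± 0.0621 in RAG (SD, n = 3), a difference of 7.63 ± 0.21 on the log2 scale (edgeR adjusted p = 2.45e-14) that went to 8.22 without RAG replicate 3. Per transcript length Prrx1 was at 0.771 ± 0.0576 times the level of Prrx2 in MV+.

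The Prrx1 promoter window (RefSeq, GRCm38.p6, chr1:163313601-163313900, minus strand) is printed beside that of Snai1 as a regulator with no RAG count and a window of another make. It held no CAGGTG or CACCTG, so no letters are in capitals, and 6 CG dinucleotides, near the median of all windows, where Snai1 had 34.
Prrx1 promoter: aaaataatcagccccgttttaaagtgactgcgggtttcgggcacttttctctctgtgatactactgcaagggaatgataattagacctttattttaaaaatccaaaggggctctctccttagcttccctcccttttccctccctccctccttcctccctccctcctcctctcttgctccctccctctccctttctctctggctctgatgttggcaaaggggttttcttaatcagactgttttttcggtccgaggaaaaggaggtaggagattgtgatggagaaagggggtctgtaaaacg

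The epithelial regulators were at the limit of detection. Grhl2, a grainyhead factor that sustains E-cadherin and claudin expression, is on chromosome 15 (mm9, chr15:37162791-37293323, plus strand, 16 exon blocks). It had 0, 2 and 0 counts in MV+ and 9, 9 and 7 in RAG, or 0, 0.0952 and 0 CPM against 0.297, 0.345 and 0.163 CPM. Every RAG library was above every MV+ library, at levels under 1 CPM. The RAG to MV+ ratio was 7.99 with an exact 95% counting interval from 1.99 to 69.6. The gene did not pass the filter on low counts, and with the filter removed its log2 fold change was -2.87 ± 0.87 (edgeR adjusted p = 0.00289). Grhl2 was the only regulator called higher in RAG in any of the fits run.

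Esrp1, the splicing factor that sets epithelial exon choice, is on chromosome 4 (mm9, chr4:11259185-11313930, minus strand). It had 1 count in RAG replicate 3 and none in the other 5 libraries. Ovol2, a zinc finger repressor of Zeb1 in epithelia, is on chromosome 2 (mm9, chr2:144130912-144157816, minus strand) and had no count in any library. No difference between the lines was detectable at this depth for either gene. A count of 0 over a line allows up to 0.0472 CPM in MV+ and 0.0302 in RAG. Their paralogs were also near the limit. Esrp2 had 12, 3 and 11 counts in MV+ and 3, 5 and 12 in RAG, and Ovol1 had 4, 2 and 1 against 9, 7 and 5. Grhl3 had 3, 2 and 1 counts in MV+ and 8, 14 and 15 in RAG. Grhl1 alone among the paralogs was tested, with a difference of -2.90 on the log2 scale (edgeR adjusted p = 9.06e-09).

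Per transcript length, which allows genes to be compared with each other, the order of the regulators in MV+ was led by the Twist factors. Twist2 stood at 32.4 ± 1.07 FPKM (deposited fragments per kilobase of exon, scaled for library size, SD, n = 3) and Twist1 at 23.9 ± 1.08. Snai1 at 18.5 ± 0.693 and Prrx1 at 16.6 ± 2.08 FPKM had overlapping ranges, as had Snai2 at 5.49 ± 0.663 and Zeb2 at 4.99 ± 0.278. Zeb1 lay between these pairs at 6.74 ± 0.24 FPKM. Prrx1 had the most counts but, with 7448 bases of exon, not the highest level per length.

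In RAG, 3 regulators exceeded 1 FPKM. Twist2 was highest at 5.46 ± 0.509 FPKM, Zeb1 followed at 4.34 ± 0.313 and Zeb2 at 1.65 ± 0.128, with no overlap between neighbours in this order. Grhl2 came next at 0.0503 ± 0.0161 FPKM, above Snai1 at 0.0111 and Snai2 at 0.0108, whose ranges overlapped. Twist2 was thus first in both lines, and Zeb1 and Zeb2 kept their relative order.

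**Figure D2:**
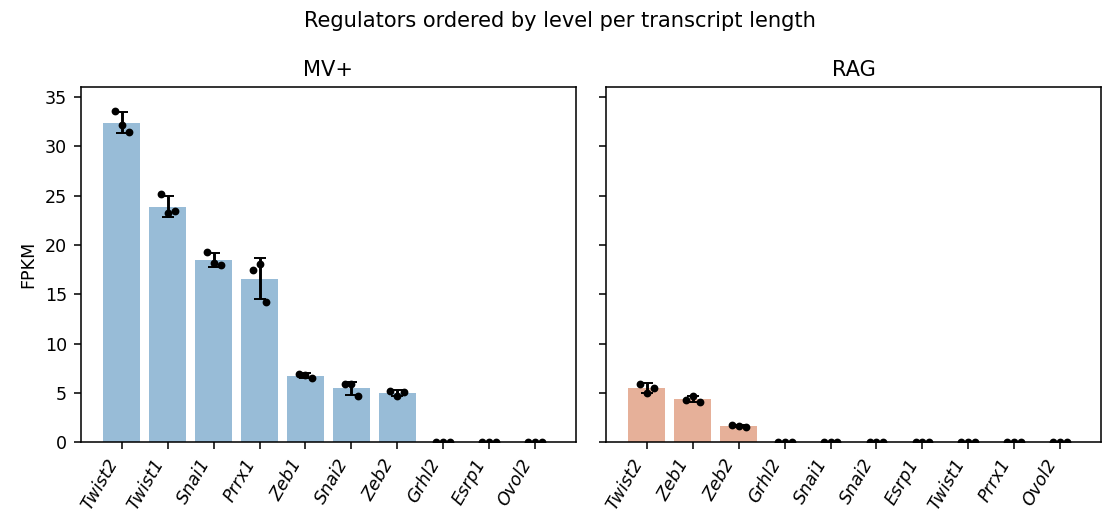
Mean FPKM of each regulator in MV+ (left) and RAG (right), ordered by level within each line, with bars for the mean, error bars for the SD and points for the 3 libraries. MV+ shows 7 regulators between 4.99 and 32.4 FPKM, and RAG shows 3, Twist2, Zeb1 and Zeb2, between 1.65 and 5.46 FPKM.

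Reads of 50 bases could separate the paralogs. No stretch of 50 bases in the annotated transcripts (mm9) was shared between Zeb1 and Zeb2, Snai1 and Snai2, Twist1 and Twist2, Prrx1 and Prrx2, Esrp1 and Esrp2, Grhl2 and Grhl1 or Ovol2 and Ovol1, and the longest shared run was 35 bases, between Esrp1 and Esrp2.

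Several genes had nearly the same profile over the 6 libraries as a regulator, measured as the Euclidean distance in log2(CPM + 0.5). For Twist1 the nearest were Pag1 at a distance of 0.0991 and Pak3 at 0.101, and for Snai1 Mab21l1 at 0.135 and Hmgn3 at 0.166. Mtap9 at 0.176 was close to Snai2, and Hist1h4n at 0.187 and Pxdn at 0.23 were nearest to Prrx1. These genes share with the regulator a level in MV+ and a near absence in RAG. With 0.5 added, all genes near 0 in RAG have nearly the same value there, so these distances rest mostly on MV+. They cannot be compared with those of the regulators present in both lines. Among the latter, Stxbp4 was at 0.196 from Zeb1, and Ifi35 at 0.263 and Nle1 at 0.291 from Zeb2. Sumf2 at 0.298 and Kif21b at 0.351 were nearest to Twist2.

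The expressed genes nearest to Snai1, Snai2, Twist1 and Prrx1 differed less between the lines than these regulators. Most genes did so wherever they lie, since 666 of 12965 tested genes had an absolute log2 fold change of 8 or more. For each regulator, the nearest gene on either side with a mean of at least 1 CPM in a line was taken. Its values were read from the same fit, a choice made after values had been seen. This neighbour lay from 2607 to 3700830 bases away and was thus not always the adjoining gene. Around Snai1, Rnf114 had a fold change of -0.35 on the log2 scale and Ube2v1 of -0.36, and around Twist1, Twistnb had -0.60 and Snx13 -1.29, so these neighbours were lower in MV+ where the regulator was higher. The neighbours of Prrx1, Prrc2c and Gorab, were modestly higher in MV+ at 0.81 and 0.76. Around Snai2, Abcc1 was higher at 0.93 and Ube2v2 had -0.01 and was not called, and Asb1 and Hdac4 around Twist2 were not called, with -0.11 and -0.14. Around the Zeb genes, Zfp438 had 0.38 and Arhgap12 -0.42 beside Zeb1, and Gtdc1 had -0.35 and Acvr2a -0.02, not called, beside Zeb2.

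The epithelial regulators, at or near 0 counts, also had expressed genes on either side. Dpy19l4, 9.91 kb from Esrp1, was at 51.9 ± 3.01 CPM in MV+ against 29.5 ± 2.3 in RAG (SD, n = 3). 8430406I07Rik and Csrp2bp beside Ovol2 were lower in MV+, with log2 fold changes of -0.83 and -0.52. Ncald, 2.61 kb from Grhl2, was lower in MV+ as well, at -0.86, and Zfp706 on the other side at -0.39.

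Other transcription factors with a mesenchymal role were split between the lines. Of 12 tested, 7 were higher and 5 lower in MV+, with a median log2 fold change of 3.20 against 0.03 over all tested genes. Over all tested genes, 40.4% were called higher and 38.9% lower, the shares beside which this and the later list counts stand. Foxf2 and Foxc2, forkhead factors of mesoderm and neural crest, and Tbx3, a T-box factor, had 135, 127 and 98 counts over MV+ and none in RAG, at least 69.8-fold, 66.0-fold and 52.0-fold higher. Klf8, Tbx2 and Sox9 were lower in MV+, by log2 differences of -3.11, -2.62 and -0.44.

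Many genes that make up the mesenchymal state were higher in MV+. Of 31 mesenchymal effector genes listed, 24 were tested, of which 21 were higher, 2 were lower and 1, Vim, was not called, with a median log2 fold change of 8.33. All 24 reached 1 CPM in MV+ and 11 did in RAG, so that some were tested only because of their counts in MV+ and had to differ. The 7 with too few counts to be tested were Lum, Thy1, Spock1, Fap, Lox, Dcn and Postn, with 0 to 22 counts over MV+. Col3a1, a fibrillar collagen, had 11396 counts over MV+ and none in RAG, at least 5992-fold higher. Col1a1 reached 1278 ± 266 CPM in MV+ against 0.0862 ± 0.0264 in RAG, and Fn1, fibronectin, 863 ± 149 against 0.0744 ± 0.0768 (SD, n = 3). Col5a1 had 17754 counts over MV+ and 2 over RAG, 13891 times as high once scaled (exact 95% counting interval 3845 to 114709), and its fitted log2 fold change moved from 13.48 to 15.72 without RAG replicate 3, which held both counts. Fn1 moved likewise from 13.49 to 14.21 without RAG replicate 2.

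Some mesenchymal genes were found in RAG too. Pdgfra, a growth factor receptor of mesenchymal cells, differed by -2.14 ± 0.19 and the receptor kinase Axl by -0.43 ± 0.06 on the log2 scale, both called lower in MV+ (edgeR adjusted p = 3.97e-08 and 1.65e-05). Vim, the intermediate filament used as a mesenchymal marker, was very abundant in both lines, at 3238 ± 42.5 CPM in MV+ against 3568 ± 231 in RAG, with a log2 difference of -0.14 ± 0.07 (edgeR adjusted p = 0.0692) that turned to 0.04, also not called, in fits to log2 FPKM. It was called lower in MV+ without RAG replicate 3 (adjusted p = 0.00944), with no filter on low counts (adjusted p = 0.0362) and with the replicate number as a block (adjusted p = 0.014). The cadherin switch gene Cdh2, N-cadherin, had 167, 155 and 155 CPM in MV+ and 0.692, 0.46 and 0.418 in RAG.

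Cdh1, the gene of E-cadherin and the classical target of the Zeb and Snai repressors, was near absent in both lines. It had 0, 2 and 2 counts in MV+ and 3, 3 and 2 in RAG, and the ranges of the scaled values overlapped. The MV+ to RAG ratio was 0.782 (counting interval 0.172 to 2.92), so no difference was detectable at this depth. Epcam, an epithelial adhesion gene, had 1, 2 and 6 counts in MV+ and none in RAG.

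The epithelial genes that Zeb and Snai factors are known to repress were split between the lines. Of 32 listed, Cdh1 and Epcam included, 18 were tested, of which 6 were higher in MV+, 11 were lower and 1 was not called, with a median log2 fold change of -1.91, and 14 had too few counts. Some simple keratin and polarity genes were found in RAG, whereas others, Krt19 and Inadl, were near 0 there. Krt18 had 48509 counts over RAG and 1 over MV+, Crb3, a polarity gene, 2640 and 0 (at least 557-fold lower in MV+), and Ocln, a tight junction gene, 889 and 0 (at least 191-fold lower). The protease inhibitor gene Spint2 was at 197 ± 9.09 CPM in RAG and 0.235 ± 0.0112 in MV+. The Krt18 ratio of RAG to MV+ had a counting interval from 5564 to 1224462, and its fitted log2 fold change of -14.56 went to -16.79 without MV+ replicate 1, which held the only count.

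Of the same list, 8 genes reached 1 CPM in MV+, and 5 of them, Jup, Pkp2, Llgl2, Cgn and Pkp3, did so in RAG too. Pkp1, a desmosomal plaque gene, had 2774 counts over MV+ and 0 over RAG, at least 1451-fold higher. Krt19, a simple keratin, had 1557 and 3 counts, 812 times as high once scaled (exact 95% counting interval 277 to 3942), and its fitted log2 fold change of 9.46 went to 10.39 without RAG replicate 2. Inadl, a polarity scaffold gene, was at 9.07 ± 0.655 CPM against 0.107 ± 0.0425, and Jup, plakoglobin, was at 68.1 ± 7.79 CPM against 44.2 ± 2.22, a log2 difference of 0.62 ± 0.09.

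Crb3 and Epcam are printed as promoters with several E-boxes of the Zeb and Snai type that were detected in different lines, in the same RefSeq windows (GRCm38.p6). Crb3, at chr17:57061951-57062250 on the plus strand, was at 26.7, 24.4 and 27.8 CPM in RAG and without a count in MV+. Epcam, at chr17:87635729-87636028 on the plus strand, had only 1, 2 and 6 counts in MV+, too few to be tested, and none in RAG. The motif is in capitals.
Crb3 promoter: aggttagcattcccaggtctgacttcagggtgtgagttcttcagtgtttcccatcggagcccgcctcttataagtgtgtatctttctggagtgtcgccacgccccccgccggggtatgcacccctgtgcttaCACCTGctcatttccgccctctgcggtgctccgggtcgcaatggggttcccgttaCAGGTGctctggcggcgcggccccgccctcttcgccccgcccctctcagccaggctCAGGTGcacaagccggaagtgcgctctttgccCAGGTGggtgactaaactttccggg
Epcam promoter: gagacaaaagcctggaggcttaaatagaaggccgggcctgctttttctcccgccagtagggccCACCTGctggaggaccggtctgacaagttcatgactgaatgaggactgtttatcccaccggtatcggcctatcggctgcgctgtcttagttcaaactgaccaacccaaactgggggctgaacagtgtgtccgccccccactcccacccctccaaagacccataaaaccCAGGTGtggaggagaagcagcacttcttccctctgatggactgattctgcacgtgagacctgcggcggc

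The Crb3 window held 4 matches, beginning 118, 63 and 7 bases before and 25 bases after the start, and the Epcam window 2, beginning 187 and 19 bases before it. Krt18 and Krt8 had 1 match each. Crb3, Krt18 and Krt8 were expressed in RAG, where Zeb1 and Zeb2 were also expressed and Snai1 and Snai2 were near 0. Tfcp2l1, at 244 ± 23.2 CPM in RAG, had 2 matches. Rbm47, at 324 ± 10.9 CPM in RAG, had no match in its 3 windows. The share of all windows with several matches was not counted, and a match says nothing of binding.

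Epithelial transcription factors other than the 3 regulators were mostly on the RAG side. Of 9 tested, 2 were higher in MV+, 6 were lower and 1 was not called, with a median log2 fold change of -4.33. This median was the value of Hnf4a, which had 0, 2 and 0 counts in MV+ and 71 over RAG. The Hnf4a value went to -7.36 without MV+ replicate 2 and to -3.70 without MV+ replicate 3. Tfcp2l1, a CP2 family factor of the distal nephron, had 244 ± 23.2 CPM in RAG and 0.827 ± 0.166 in MV+, and Rbm47, an RNA-binding protein of epithelia, 324 ± 10.9 and 2.87 ± 0.532. Elf3, an ETS factor of epithelia, had 1648 counts over RAG and 0 over MV+, at least 350-fold lower in MV+. In the other direction Klf5, a Krüppel-like factor of epithelial progenitors, had 2437 counts over MV+ and none in RAG, at least 1267-fold higher.

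The cofactors through which the repressors act were present in both lines. All 21 corepressor and turnover genes had at least 1 CPM in both. Where 79.3% of all tested genes were called, 11 of these were higher in MV+, 5 were lower and 5 were not called, with a median log2 fold change of 0.20. Of the 5, Fbxo11, an F-box ligase gene, was called higher with the replicate number as a block (edgeR adjusted p = 0.0226) and without RAG replicate 3 (edgeR adjusted p = 0.00763). Gsk3b was called higher in both fits to log2 FPKM (limma adjusted p = 0.0293 and 0.0303). Of the 11, Siah1a, Siah1b and Hdac1 lost their calls under some alternatives. Over all alternatives, 8 to 12 genes were called higher and 4 to 5 lower. Jub, a LIM protein that binds Snai1, had the largest difference of the 11 at 1.35 ± 0.07. It was followed by the remodeller Smarca4 at 0.84 ± 0.08, Hdac3 at 0.56 ± 0.07 and Sin3a at 0.48 ± 0.07. Lower in MV+ were Limd1, a relative of Jub, at -0.80 ± 0.07, the Zeb corepressors Ctbp2 and Ctbp1 at -0.53 ± 0.06 and -0.41 ± 0.06, and Fbxl5, a ligase that targets Snai1, at -0.51 ± 0.07.

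Twist proteins act as dimers with E proteins, and Id proteins take these partners away. Of 7 such genes tested, 3 were higher and 4 lower in MV+, where 79.3% of all tested genes were called. The E protein genes Tcf12 and Tcf3 were higher in MV+ at 0.49 ± 0.08 and 0.32 ± 0.07, and Tcf4 was lower at -0.41 ± 0.10. The Id genes differed more. Id4 was at 0.304 ± 0.0775 CPM in MV+ against 33.0 ± 1.89 in RAG, Id1 at 28.7 ± 0.932 and 80.0 ± 2.3, and Id2 at 35.9 ± 4.52 and 68.2 ± 7.8 (SD, n = 3). Id3 was higher in MV+, at 95.8 ± 21.1 against 47.8 ± 5.76 CPM (log2 fold change 1.00 ± 0.19, edgeR adjusted p = 0.00265). Hand1 had no count in either line, and Hand2 had 0 counts over MV+ and 3, 10 and 7 in RAG.

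Genes of TGF-beta and BMP signalling, which induce the Snai and Zeb genes in many cells, differed in both directions. Of 15 tested, 10 were higher in MV+, 4 were lower and 1 was not called, where 79.3% of all tested genes were called. Their median log2 fold change was 0.95. All 3 TGF-beta ligand genes were higher in MV+, Tgfb3 by 5.28 ± 0.16, Tgfb2 by 1.72 ± 0.12 and Tgfb1 by 1.68 ± 0.09. Tgfbr2, the type II receptor, was also higher, at 3.30 ± 0.08, whereas Tgfbr1, the type I receptor, and Tgfbr3, a coreceptor, were lower in MV+ at -0.69 ± 0.08 and -2.53 ± 0.07. Bmp7, a ligand of kidney epithelium that is known to oppose TGF-beta there, was at 92.6 ± 6.38 CPM in RAG and 0.112 ± 0.0307 in MV+, and the BMP receptor gene Bmpr1a was lower in MV+ at -0.89 ± 0.08. Other BMP genes were higher in MV+, with Bmp4 at 55 counts over MV+ and 0 over RAG (at least 29.6-fold higher) and the type II receptor gene Bmpr2 at 0.95 ± 0.07.

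**Figure D3:**
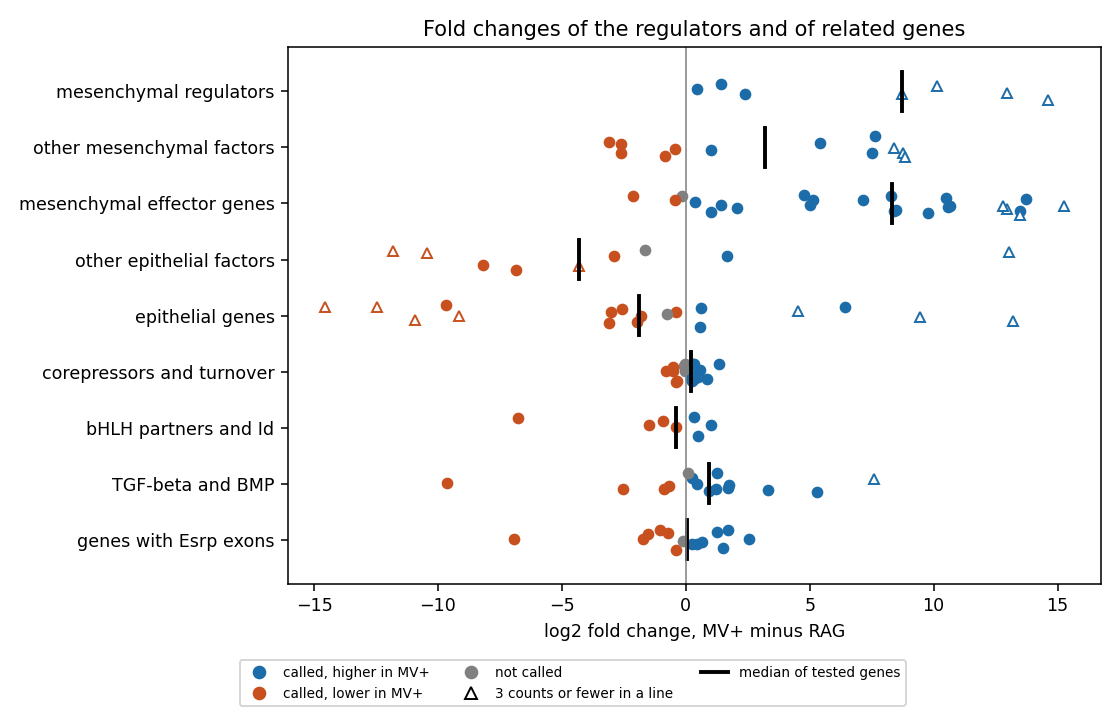
Log2 fold change (MV+ minus RAG) of every tested gene of the mesenchymal regulators and of 8 related lists, 1 symbol per gene, with blue for called higher in MV+, orange for called lower, grey for not called, open triangles for genes with 3 counts or fewer over a line and black bars for the list medians. The medians of the mesenchymal effector genes and the epithelial factors stand at 8.33 and -4.33, and that of the corepressors at 0.20.

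Genes whose exons are under Esrp control are listed because Esrp1 had at most 1 count in either line. All 14 were tested, 7 were higher in MV+, 6 were lower and 1, Exoc7, was not called, where 79.3% of all tested genes were called. Their median log2 fold change was 0.06. With the replicate number as a block Exoc7 was called lower (adjusted p = 0.0468). Fgfr2, which has mutually exclusive epithelial and mesenchymal exons, was at 0.659 ± 0.0373 CPM in MV+ against 81.4 ± 2.46 in RAG, lower in MV+ at -6.94 ± 0.11 on the log2 scale (edgeR adjusted p = 8.86e-17). Tcf7l2 at 2.53 ± 0.10 and Cd44 at 1.68 ± 0.07 were higher in MV+, as was Ctnnd1 (336 ± 30.3 CPM against 119 ± 12.0), and Magi1 at -1.73 ± 0.10, Nf2 at -1.51 ± 0.06 and Enah at -1.03 ± 0.16 were lower. Counts per gene do not show which exons were used.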

How the data were processed

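Ribosome-depleted total RNA of 3 MV+ and 3 RAG cultures was sequenced as single reads of 50 bases; the library kit is not described as marking strand. Per the submitters' processing notes and the file headers, the authors aligned reads to mm9 with TopHat2 version 2, used SAMtools 1.6 and counted reads per RefSeq gene with featureCounts 1.5.0-p3. The deposited counts are raw, with multi-mapping reads and reads on several genes left out at the default settings. FPKM values, likewise deposited, were derived by the authors from these counts and exon lengths, and recomputing them gave a largest relative difference of 2.9e-15. The table held 0 rows without a gene name.

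Counts of 12965 genes passing filterByExpr were tested with the robust quasi-likelihood test of edgeR 4.0.16 (R 4.3.3) after TMM scaling, two-sided, with calls made where the Benjamini-Hochberg adjusted p was below 0.05. The SE is the log2 fold change over the square root of F, and can understate counting error where a line has few counts. The steps were tested on simulated data. A floor of 3 counts equalled between 0.0697 and 0.167 CPM in 1 library. Intervals are exact 95% and, like floors, cover counting error only. Replicates differed beyond sampling noise (chi-square over degrees of freedom from 8.87 to 92.7).

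Alternatives were DESeq2 1.42.0, upper quartile scaling, removal of Rn45s, other filters, limma 3.58.1 on log2 FPKM with a pseudocount of 1 or 0.1, the replicate number as a block, and each library left out. Libraries with the same replicate number deviated together from their line means (correlations of 0.422, 0.304 and 0.251 over 10077 genes, against -0.242 to -0.054 for other pairs), which is a hint from the data, as the labels name no shared day or batch.

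Named were all 10 regulators, up to 4 called genes per list and direction with the largest absolute log2 fold change and a mean of 1 CPM in the higher line, all miRNA genes with counts, overlapping genes and the 2 genes nearest in log2(CPM + 0.5) to each regulator above 1 CPM; some other genes, such as Cdh1, Epcam, Cdh2, Vim and paralogs, were added after values were seen. Some genes that this rule names are not reported here. The regulators and lists were chosen with earlier results of these data known, so their counts are descriptions and no list was tested as a set. Sequences come from RefSeq tables (GRCm38.p6) and from mm9 transcripts.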

Additional observations from a re-analysis of the deposited data

How the results depend on the processing

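All 7 mesenchymal regulators stayed called higher in MV+ under all 14 alternatives, including each library left out (7 to 7). Snai1, Snai2, Twist1 and Prrx1 were tested only because of their MV+ counts, so the alternatives bore mainly on Zeb1, Zeb2 and Twist2. Over all genes, leaving out 1 library gave 5087 to 5204 genes higher and 4868 to 4986 lower in MV+. Of the epithelial regulators, 1 (Grhl2) was called lower in MV+ with no filter and none otherwise, since none passed the other filters. The fits to log2 FPKM moved the median of all genes by 0.17 and 0.18 on the log2 scale, and 60.6% of their calls were higher in MV+ against 50.9% in the main test. The fitted log2 fold changes of Snai1, Snai2, Twist1 and Prrx1 fell to 4.27, 2.68, 4.64 and 4.13 with a pseudocount of 1 FPKM, by construction, since their RAG levels are below it. With the replicate block, 7 mesenchymal regulators were called higher and 0 epithelial ones were called, and Zeb1 stayed at a log2 fold change of 0.45; the pairing changed no other call of a regulator. Of 252 list counts under alternatives, 250 stayed within 1.5 times of the main count. The exceptions were 1 miRNA gene, Mir30d, called higher with no filter, and 1 epithelial factor, Klf5, left as higher under a filter of 1 CPM in 3 libraries. Sox9 and Tcf4 lost their calls in both FPKM fits (adjusted p from 0.0992 to 0.119). Depth limits Esrp1, Ovol2, Grhl2, Cdh1 and the miRNA genes, and the RAG side of every gene with 3 counts or fewer there.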

Other observations

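Klf4, a factor with epithelial and stem cell roles, did not pass the test between the lines but varied between replicates. It was at 8.23, 10.1 and 18.7 CPM in MV+ and 19.4, 32.8 and 66.4 CPM in RAG, with replicate 3 the highest library of each line. Its log2 fold change was -1.67 (edgeR adjusted p = 0.0696, and 5.61e-09 with the replicate number as a block), 0.0447 without RAG replicate 1 and 0.00906 with DESeq2; without RAG replicate 3 the log2 fold change was -1.06 (adjusted p = 0.115). The contractile genes Acta2 and Tagln were lowest in MV+ replicate 3, at 73.4 against 197 and 179 CPM and at 78.0 against 185 and 179 CPM. In CPM, 6 of the 7 mesenchymal regulators, all but Zeb2, were also lowest there. Their gaps were smaller, such as 34.9 against 39.8 and 35.4 CPM for Twist1. In FPKM, Twist1 was lowest in MV+ replicate 2 instead. The share of all genes that were lowest in MV+ replicate 3 was not counted.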
